A study of Mus musculus with 6 samples.

Results

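Ribosome biogenesis and Myc-activated growth genes were followed through 6 RNA-seq libraries of mouse MA9 leukaemia. The group was chosen by symbol: 32 genes for nucleolar proteins, RNA polymerase I, ribosome assembly factors and growth genes that Myc activates, out of 49585 rows of the count table. Of these, 31 passed the filter on low counts, with 868 to 57970 counts per library. The other one, Wdr74, a large subunit assembly factor, was listed at 0 in all 6 libraries and enters no count or median. These 32 genes, and the lists of other genes below, were chosen with earlier results of these data known.

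MA9 leukaemia is an acute myeloid leukaemia driven by the MLL-AF9 fusion. There were 3 libraries of Gata2 f/f leukaemia, whose Gata2 alleles are floxed, and 3 of Gata2 KO leukaemia, whose genotype is given as Gata2 -/- and whose sample descriptions read Cre. Cells of both groups, labelled as bone marrow, grew in IMDM with serum, IL-3, IL-6 and SCF, and all 6 cultures received 5 uM Nutlin, a drug that blocks Mdm2 and so activates p53, for 18 h. No Nutlin-free culture was analysed here, so the comparison is of genotypes under Nutlin. Cre expression and loss of Gata2 cannot be told apart in this design. The sources used here do not give the promoter driving Cre, the animals' age, or whether same-group libraries came from separate leukaemias, so every p-value reflects only how these samples vary, which may be technical.

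Ribosomes are built in the nucleolus, where RNA polymerase I transcribes a long precursor RNA. Small nucleolar ribonucleoproteins (snoRNPs) modify that precursor, and assembly factors cut, fold and export it as the small and large subunits. Myc with its partner Max binds the DNA sequence CACGTG, called an E-box, and activates many of these genes in dividing cells. When assembly is disturbed, free ribosomal proteins bind Mdm2 and stabilise p53, the same protein that Nutlin activates.

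The sequences show where members carry the Myc-Max E-box at their start. RefSeq promoter windows (build GRCm38.p6) of 250 bases before to 50 after the gene start were found by symbol for 26 of the 32 members. The motif CACGTG, which is its own reverse complement and so reads alike on both strands, was present in 6 of these 26 members (23.1%). The share was 11.8% of the 9852 tested genes with a window and 8.09% of all 27025 genes with a window of the same length. Stretches around the motif follow, 5′ to 3′ on the gene's strand, with the E-box in capitals.
Nop2: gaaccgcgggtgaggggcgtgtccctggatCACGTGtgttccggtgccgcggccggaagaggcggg
Eif4a1: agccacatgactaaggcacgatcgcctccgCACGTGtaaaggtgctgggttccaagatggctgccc
Hspd1: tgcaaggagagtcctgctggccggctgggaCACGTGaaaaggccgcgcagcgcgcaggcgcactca
Mybbp1a: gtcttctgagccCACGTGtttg
Wdr43: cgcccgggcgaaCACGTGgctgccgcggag
Pes1: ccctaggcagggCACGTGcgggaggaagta
These stretches lie at chr6:125131793-125131858 (plus strand) for Nop2, chr11:69672577-69672642 (minus) for Eif4a1 and chr1:55088288-55088353 (minus) for Hspd1. Those of Mybbp1a, Wdr43 and Pes1 lie on the plus strand at chr11:72441355-72441376, chr17:71616220-71616249 and chr11:3963965-3963994. Counted from the gene start, whose own base is 1, the first E-box base stood upstream at -60 in Nop2, -189 in Eif4a1 and -80 in Hspd1. It stood inside the first transcribed bases at 41 in Mybbp1a, 18 in Wdr43 and 3 in Pes1. In Nop2 and Mybbp1a the RefSeq start was not found in transcripts of the GENCODE M21 annotation, so their positions hold for RefSeq only. A match describes the letters of the window and not binding, which was not measured.

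Total counts ran from 17138687 to 26440960 per library, and levels below are library-scaled CPM, counts relative to each library's scaled total. Gata2, the deleted gene, stood at 33.6, 22.3 and 18.4 CPM in the f/f libraries, in the order 1 to 3 kept throughout, against 5.44, 43.3 and 4.33 CPM in the KO libraries. The library labelled Gata2 KO 2 therefore held more Gata2 RNA than any f/f library, against its label. Both libraries numbered 3 stood apart in monocyte and macrophage genes and in cell-cycle genes, with values given beside the results below. B-cell markers summed to 1.48 to 6.22 CPM and T-cell markers to 0.627 to 2.98 CPM. Myc itself stood at 220, 181 and 145 CPM in f/f libraries 1 to 3 and 221, 185 and 97.1 CPM in the KO libraries, and its genotype difference did not pass the test (log2 fold change, KO over f/f, -0.12 ± 0.34 SE). In bulk RNA, fewer cells of a type and less RNA per cell cannot be told apart.

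Members spanned a wide range of abundance, which is compared here per kb of merged exon length. The median member stood at 51.8 CPM per kb over the 6 libraries. Npm1, the nucleolar chaperone nucleophosmin, was the most abundant at 691 CPM per kb, followed by the translation helicase Eif4a1 at 305 and the mitochondrial chaperonin Hspd1 at 293 CPM per kb. The spermidine synthase Srm at 192, the polyamine enzyme Odc1 at 145 and nucleolin (Ncl) at 142 CPM per kb came next. The lowest level was that of Polr1a, the largest subunit of RNA polymerase I, at 6.84 CPM per kb, below its partner subunits Polr1b at 13.0 and Polr1c at 38.7 CPM per kb. By longest transcript in place of merged exons the Npm1 level was 1128 CPM per kb. These ranks depend on the annotated length. Ncl has 10188 bases of merged exons and a mean of 1649 CPM in f/f, and Srm 1599 bases and 306 CPM.

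**Figure D1:**
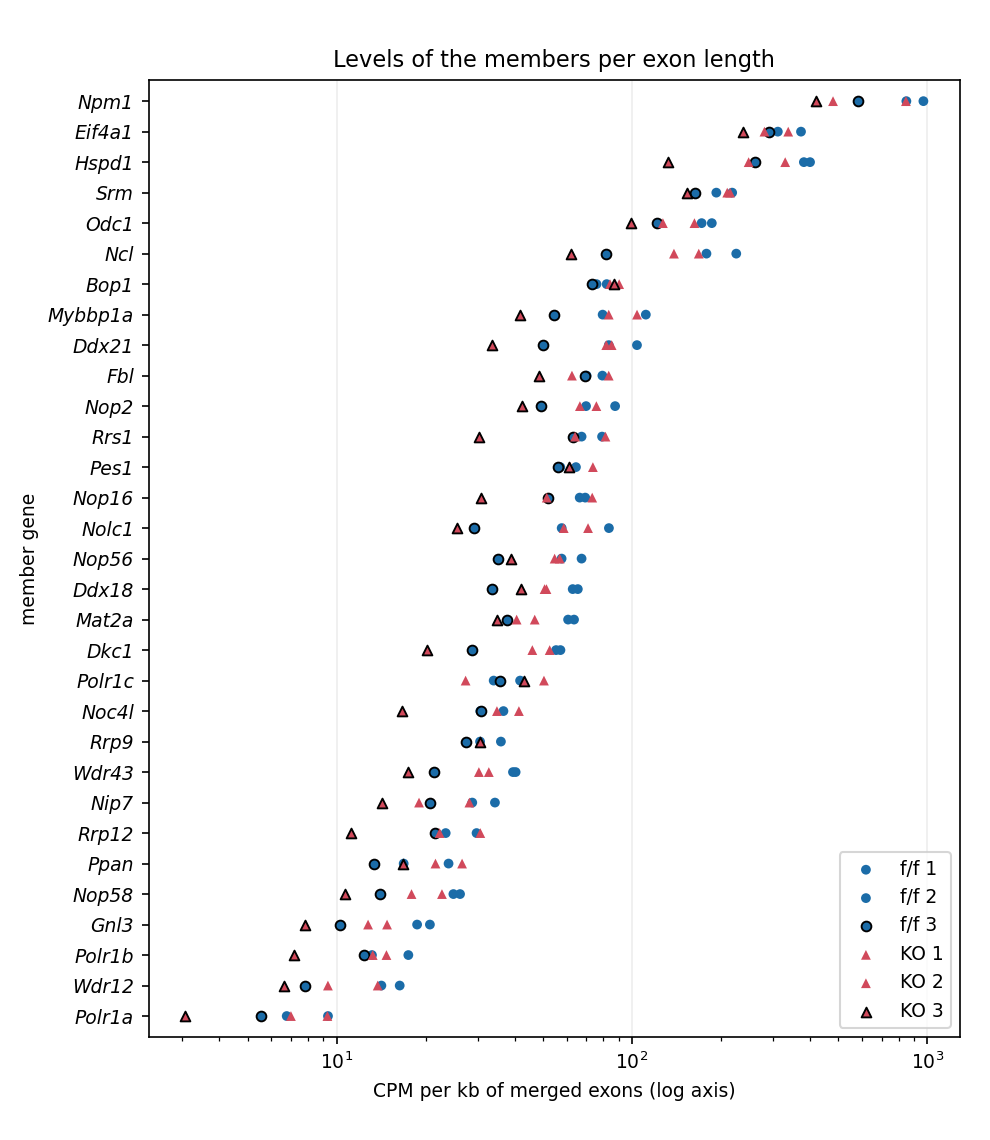
Level of each tested member in CPM per kb of merged exon length (log axis), 1 point per library, circles for f/f and triangles for KO, with libraries numbered 3 outlined in black. Members are ordered by their mean level, from 691 CPM per kb for Npm1 to 6.84 CPM per kb for Polr1a.

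The genotype comparison asks whether these genes differ between Gata2 KO and Gata2 f/f leukaemia under Nutlin. No member passed the test, although most were lower on average in Gata2 KO: 26 of 31 had a negative log2 fold change, against 47.5% of the 13744 genes tested. The median member log2 fold change was -0.22, with a range of -0.55 to 0.26, and the median of all genes was 0.02. Members furthest below 0 were Hspd1 (-0.55 ± 0.37 SE), Gnl3, which encodes the nucleolar GTPase nucleostemin (-0.49 ± 0.35), and Npm1 (-0.46 ± 0.35). Those above 0 were Ppan (0.26 ± 0.29), Bop1 (0.18 ± 0.20) and Pes1 (0.15 ± 0.21), all large subunit factors, with Polr1c (0.11 ± 0.27) and Srm (0.01 ± 0.24).

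By edgeR's quasi-likelihood test with Benjamini-Hochberg adjustment over all genes, the adjusted p was 1.00 for each member. The count of members at an unadjusted p under 0.05 was 0 as well, and 0 members passed by limma voom or by DESeq2 (0.0364% of all genes lower and 0.0146% higher). Among all genes, edgeR called 0 lower (0%) and 0 higher (0%), with 0.517% lower and 0.728% higher at an unadjusted p under 0.05. With library number as a block, again 0 members and 0 genes passed, and 4 members, Npm1, Gnl3, Nip7 and Hspd1, were lower at an unadjusted p under 0.05, against 3.3% of all genes lower and 7.41% higher. In that fit of all 6 libraries the smallest adjusted p among members was 0.403, for Hspd1. DESeq2 with the block passed 0 members (0.306% of all genes lower and 1.31% higher), as did edgeR with the block and no Gata2 KO library 2 (0.147% lower and 0.231% higher).

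**Figure D2:**
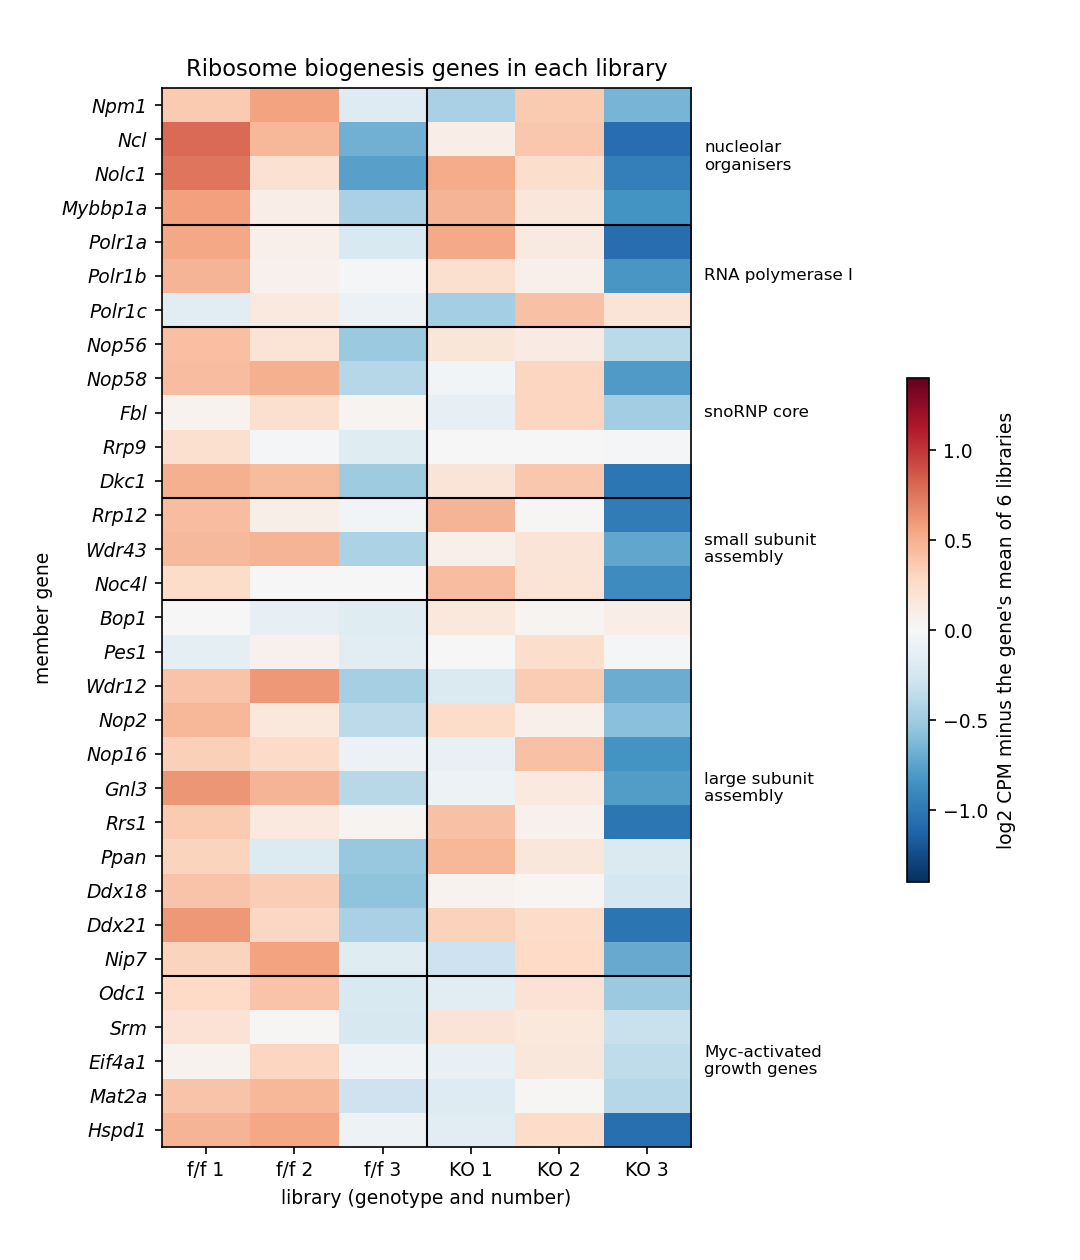
Level of the 31 tested members in each of the 6 libraries, as log2 CPM minus the member's mean over the libraries, grouped by role. The columns of libraries numbered 3 are the lowest for most members, with a mean of -0.28 in the f/f library and -0.62 in the KO library of that number.

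Equal-numbered libraries gave differences of unequal size. No source used here states that equal numbers pair libraries, and the data do not show that 1 and 2 pair as numbered. Within number 1 the median member difference, KO minus f/f, was -0.25 on the log2 scale and 25 of 31 members were lower in KO, against 47.4% of all genes. In the number 2 pair, whose KO library goes against its label at Gata2, it was -0.07, with 18 of 31 lower against 45.9%. Number 3 gave -0.38, with 24 of 31 lower against 50.3%. The medians of all genes for these pairs were 0.03, 0.03 and -0.01.

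Within all 3 numbers, 14 members were lower in KO (45.2%, against 17.7% of all genes): Npm1, Ncl, Nop58, Dkc1, Wdr43, Wdr12, Nop2, Gnl3, Ddx21, Nip7, Odc1, Eif4a1, Mat2a and Hspd1. Bop1, Pes1 and Ppan were higher in KO in all 3 (9.68%, against 20.7%). Both counts depend on matching libraries by number, which the data do not show to hold for 1 and 2. Ranges of the groups overlapped for all but Bop1, which was higher in every KO library than in any f/f library (3.23% of members, against 2.64% of all genes). No member was lower in every KO library than in any f/f library, an arrangement that 2.78% of all genes had. It was seen in 6 members without KO library 2 (9.2% of all genes) and in 14 without f/f library 3 (15.1%). With no libraries numbered 3 it was seen in 15 members (19.8%). Without Gata2 KO library 3 the median was -0.021 and 16 members were negative, while without Gata2 f/f library 3 it was -0.43. It was -0.13 without f/f library 1, -0.36 without KO library 1 and -0.34 without the library labelled Gata2 KO 2.

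**Figure D3:**
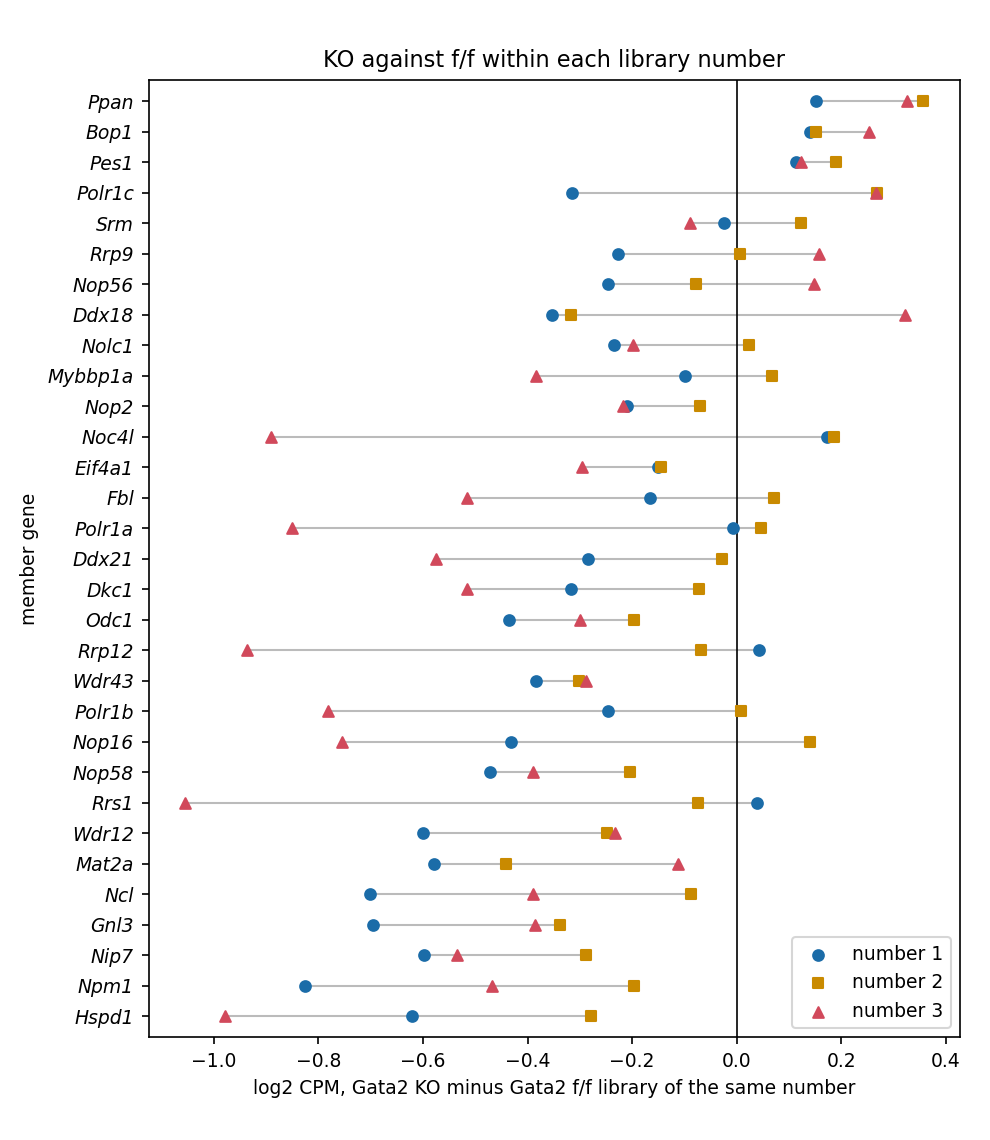
Log2 difference between the Gata2 KO and the Gata2 f/f library of the same number, for each tested member. Medians are -0.25, -0.07 and -0.38 for numbers 1, 2 and 3, so the median of number 2 lies closest to 0.

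Marker levels of maturing myeloid cells stand beside these values, with overlapping groups. Late neutrophil markers summed to 293, 586 and 2086 CPM in f/f libraries 1 to 3 and to 1915, 636 and 3833 CPM in the KO libraries. Of the 11 tested, 10 had a positive fold change and 0 passed the test. Monocyte and macrophage markers summed to 683, 539 and 6299 CPM in f/f and to 2121, 1577 and 7956 CPM in KO, with 12 of 12 positive and 0 passing. The part of these cells in the members' differences was not tested.

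Nucleolar organisers all had negative fold changes without passing. Npm1 (ENSMUSG00000057113.13, chromosome 11, 33152287 to 33163206, minus strand, build GRCm38) stood at 2264, 2585 and 1550 CPM in f/f libraries 1, 2 and 3 and at 1278, 2256 and 1121 CPM in KO libraries 1, 2 and 3. The KO values were lower within every number, but KO library 2 exceeded f/f library 3 and the ranges overlapped. Ncl (ENSMUSG00000026234.12, chromosome 1, 86344719 to 86359400, minus strand) encodes nucleolin, which binds precursor rRNA. It stood at 2297, 1820 and 829 CPM in f/f and at 1413, 1715 and 633 CPM in KO, for a log2 fold change of -0.40 ± 0.48 SE. Within each genotype its library 3 was the lowest by a wide margin.

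Nolc1, a snoRNP chaperone of the nucleolus, stood at 332, 229 and 116 CPM in f/f and 282, 233 and 101 CPM in KO. Mybbp1a, a nucleolar Myb-binding protein, stood at 646, 461 and 316 CPM in f/f and 603, 484 and 242 CPM in KO. For both genes the genotypes within a number lay closer together than the numbers did. Their log2 fold changes, -0.14 ± 0.48 and -0.10 ± 0.40 SE, turned positive without f/f library 1 (0.19 and 0.13) and without KO library 3 (0.17 for each).

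RNA polymerase I subunits did not share a sign, and none passed. Polr1b, which with Polr1a forms the enzyme's catalytic centre, stood at 101, 76.4 and 71.6 CPM in f/f and 85.5, 76.9 and 41.6 CPM in KO (log2 fold change -0.29 ± 0.32 SE). Polr1c, which RNA polymerase III also uses, stood at 77.5, 95.2 and 81.6 CPM in f/f and 62.2, 115 and 98.1 CPM in KO. It was the only member whose lowest library was KO library 1 and the only one not lower on average in libraries numbered 3. Polr1a ranged from 65.8 to 111 CPM in f/f and from 36.5 to 110 CPM in KO, and nearly all of its difference came from number 3, at -0.85 against -0.01 and 0.05 within numbers 1 and 2.

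Core snoRNP proteins all had negative fold changes, from -0.34 for Nop58 to -0.03 for Rrp9, without passing. Nop58, a scaffold of the box C/D snoRNPs that guide methylation, stood at 267, 281 and 151 CPM in f/f and 193, 244 and 115 CPM in KO (-0.34 ± 0.36 SE). Each KO library lay below the f/f library of the same number, and both libraries numbered 3 below the other 4. Dkc1, dyskerin, the pseudouridine synthase of the box H/ACA snoRNPs, had the same arrangement at 236, 228 and 119 CPM in f/f and 189, 217 and 83.1 CPM in KO. Fbl, fibrillarin, the methyltransferase of the same box C/D particle as Nop58, stood at 295, 334 and 293 CPM in f/f and 263, 351 and 204 CPM in KO, so only KO library 3 was low. The partner scaffold Nop56 ranged from 144 to 277 CPM in f/f and 159 to 233 CPM in KO, and Rrp9, which marks the U3 snoRNP, stayed between 80.3 and 106 CPM in all 6 libraries.

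Small subunit assembly factors were likewise negative without passing. Wdr43, part of the complex that first joins the nascent precursor, stood at 189, 193 and 102 CPM in f/f and 145, 156 and 83.2 CPM in KO (-0.33 ± 0.35 SE). Its differences were alike within the 3 numbers, at -0.38, -0.30 and -0.29. Rrp12, an export factor, stood at 129, 102 and 93.2 CPM in f/f and 133, 96.8 and 48.6 CPM in KO (-0.22 ± 0.37 SE). Its KO library 3 alone was low. Noc4l, whose yeast counterpart acts in small subunit maturation, ranged from 79.5 to 95.2 CPM in f/f and from 43.0 to 107 CPM in KO, and its difference was positive within numbers 1 and 2 (0.17 and 0.19) and negative within number 3 (-0.89).

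Large subunit assembly factors did not share a sign: 8 of 11 tested were negative and 3 positive, and none passed. Bop1, Pes1 and Wdr12 form one complex, PeBoW, that processes large subunit precursor rRNA. Bop1 (ENSMUSG00000022557.10, chromosome 15, 76452989 to 76477277, minus strand) stood at 243, 224 and 216 CPM in f/f and 267, 249 and 257 CPM in KO, means of 228 ± 13.8 and 258 ± 9.25 CPM (SD, n = 3 each). These groups did not overlap, although edgeR's adjusted p was 1.00. Pes1 stood at 173, 195 and 170 CPM in f/f and 187, 223 and 185 CPM in KO, higher in KO within each number with overlapping ranges. Wdr12, by contrast, stood at 169, 195 and 93.2 CPM in f/f and 112, 165 and 79.3 CPM in KO, lower in KO within each number (-0.37 ± 0.37 SE). The difference in response between these partner genes was not tested.

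Gnl3 stood at 126, 114 and 62.4 CPM in f/f and 77.9, 90.3 and 47.7 CPM in KO. Nip7, a factor in precursor cleavage, stood at 90.1, 107 and 64.8 CPM in f/f and 59.5, 88.0 and 44.7 CPM in KO (-0.45 ± 0.32 SE). Both were lower in KO within every number, and in both the libraries numbered 3 were lowest within their genotype. Ddx21, an RNA helicase of the nucleolus, stood at 538, 432 and 259 CPM in f/f and 442, 423 and 174 CPM in KO (-0.24 ± 0.42 SE).

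Ppan, an early large subunit factor, was the most positive member, from 53.5 to 95.8 CPM in f/f and from 67.1 to 106 CPM in KO. The rRNA methyltransferase Nop2 ranged from 136 to 243 CPM in f/f and 117 to 210 CPM in KO. The nucleolar factor Nop16 ranged from 96.2 to 128 CPM in f/f and stood at 94.9 and 135 CPM in KO libraries 1 and 2, with its lowest value in KO library 3. Rrs1, which helps place the 5S particle, ranged from 129 to 162 CPM in f/f and from 62.1 to 166 CPM in KO. Helicase Ddx18 ranged from 83.6 to 163 CPM in f/f and 105 to 127 CPM in KO. In these 5 genes the genotypes overlapped, with fold changes from -0.27 for Nop16 to 0.26 for Ppan.

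Growth genes activated by Myc held the most negative member. Hspd1 (ENSMUSG00000025980.14, chromosome 1, 55077835 to 55088243, minus strand) stood at 1009, 1059 and 691 CPM in f/f and 656, 872 and 350 CPM in KO, means of 920 ± 199.8 and 626 ± 262 CPM (SD, n = 3 each). KO was lower within each number, but KO library 2 lay above f/f library 3. Mat2a, which makes the methyl donor S-adenosylmethionine, stood at 273, 285 and 169 CPM in f/f and 182, 210 and 157 CPM in KO (-0.41 ± 0.27 SE). Its KO library 1 lay close to the libraries numbered 3 of both genotypes.

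In the polyamine pathway the first enzyme, Odc1, ranged from 415 to 634 CPM in f/f and 337 to 554 CPM in KO (-0.30 ± 0.29 SE). Srm, further along the same pathway, had nearly equal means of 306 ± 44.4 and 308 ± 54.9 CPM (SD, n = 3 each). Its fold change of 0.01 turned to -0.0091 with DESeq2 size factors and to -0.020 with upper-quartile scaling, so no direction is given for it. Eif4a1 ranged from 1262 to 1619 CPM in f/f and from 1028 to 1465 CPM in KO.

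**Figure D4:**
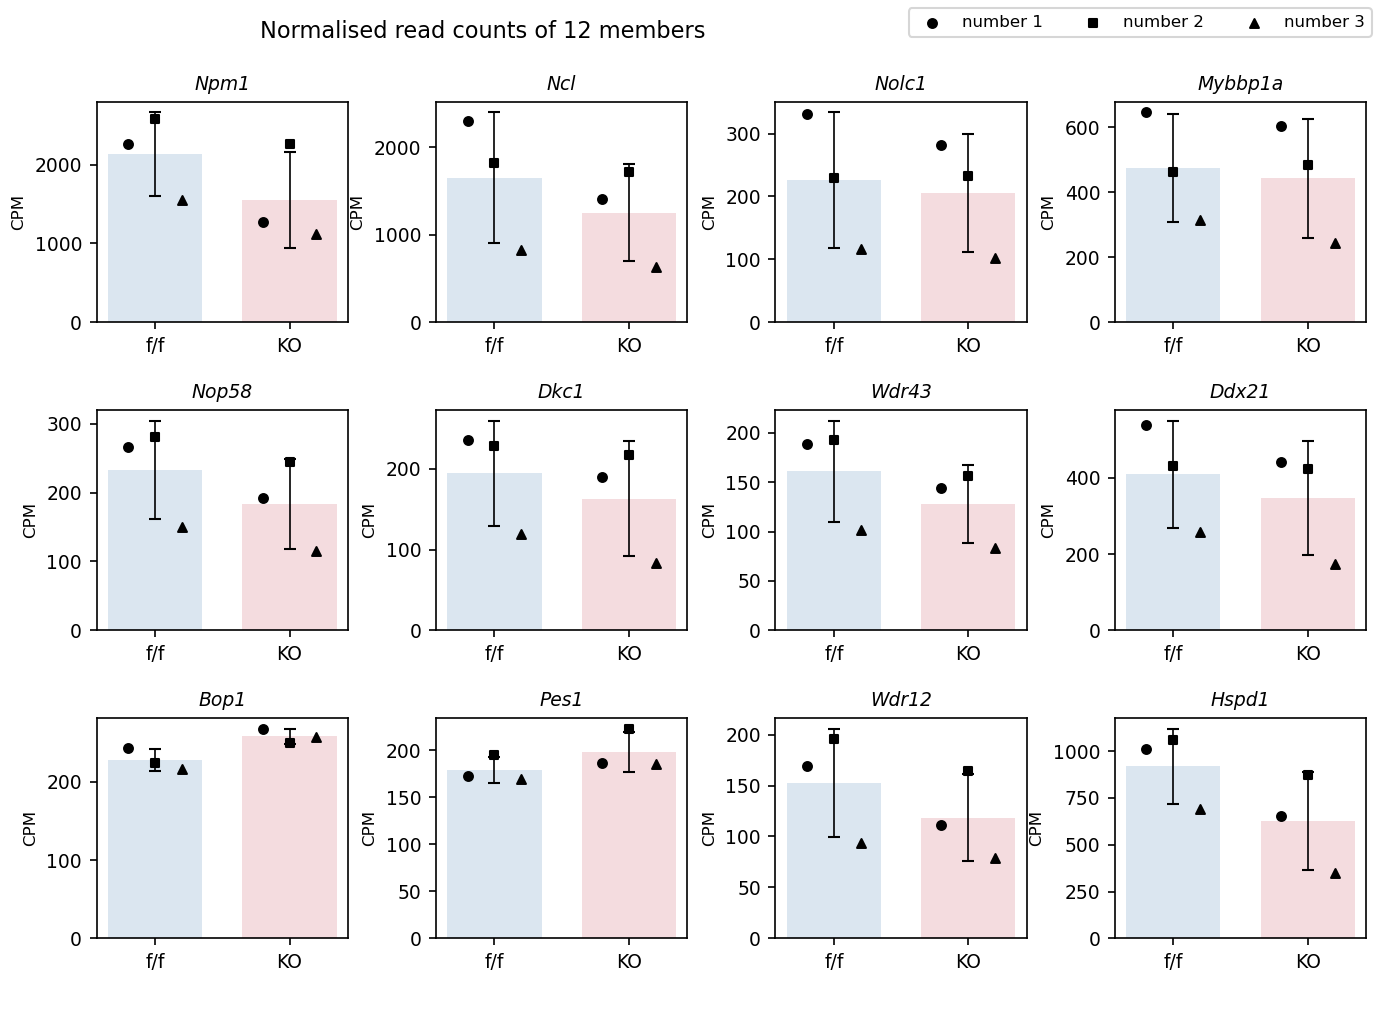
Level in CPM of 12 members, as bars for the mean of 3 libraries per genotype with SD error bars, and circles, squares and triangles for libraries 1, 2 and 3. Triangles are the lowest points for most genes, and for Bop1 the 2 genotypes do not overlap, at 216 to 243 CPM in f/f and 249 to 267 CPM in KO. The 12 include Bop1 and all 8 members that passed the test between library numbers, so they do not stand for all members.

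Library number accounted for more of the members' variation than genotype. In a fit of genotype and number together, 8 of 31 members differed between numbers by edgeR's quasi-likelihood F-test (25.8%, against 9.09% of all genes). All 8 had both libraries numbered 3 below the other 4 (2.31% of all genes passed in that way, and 6.37% with both above). Ncl had the largest difference, with libraries numbered 3 at 0.404 times the mean of the others (log2 -1.30, edgeR adjusted p = 0.0304), and Nolc1 was next at 0.404 times (-1.29, adjusted p = 0.0169). Dkc1 at 0.464, Ddx21 at 0.471, Mybbp1a at 0.509, Nop58 at 0.538, Wdr12 at 0.539 and Wdr43 at 0.542 times the others had adjusted p of 0.0319, 0.0365, 0.0384, 0.043, 0.048 and 0.0441.

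The F-test took all numbers together, and setting number 3 against the other 4 was not part of that planned test. Whether or not they passed, 21 of 31 members had both libraries numbered 3 below the other 4 (67.7%, against 20.4% of all genes). On average 30 of 31 were lower in those libraries (50.5% of all genes), with a median log2 difference of -0.68 against -0.01 for all genes. Gata2 KO library 3 was the lowest of the 6 for 24 members and Gata2 f/f library 3 for 6. The median share of a member's sum of squares between numbers was 74.5%, against 14.0% between genotypes, and 62.8% and 11.7% for all genes, where number has 2 degrees of freedom and genotype 1. Number exceeded genotype in 30 of 31 members (85.3% of all genes), and in Bop1 genotype took 70.9% and number 23.5%. Within numbers 1 and 2 alone, 0 members and 0 genes differed between numbers. That fit had too few libraries to show that numbers 1 and 2 are alike. What the numbers stand for is not given in the sources used here.

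**Figure D5:**
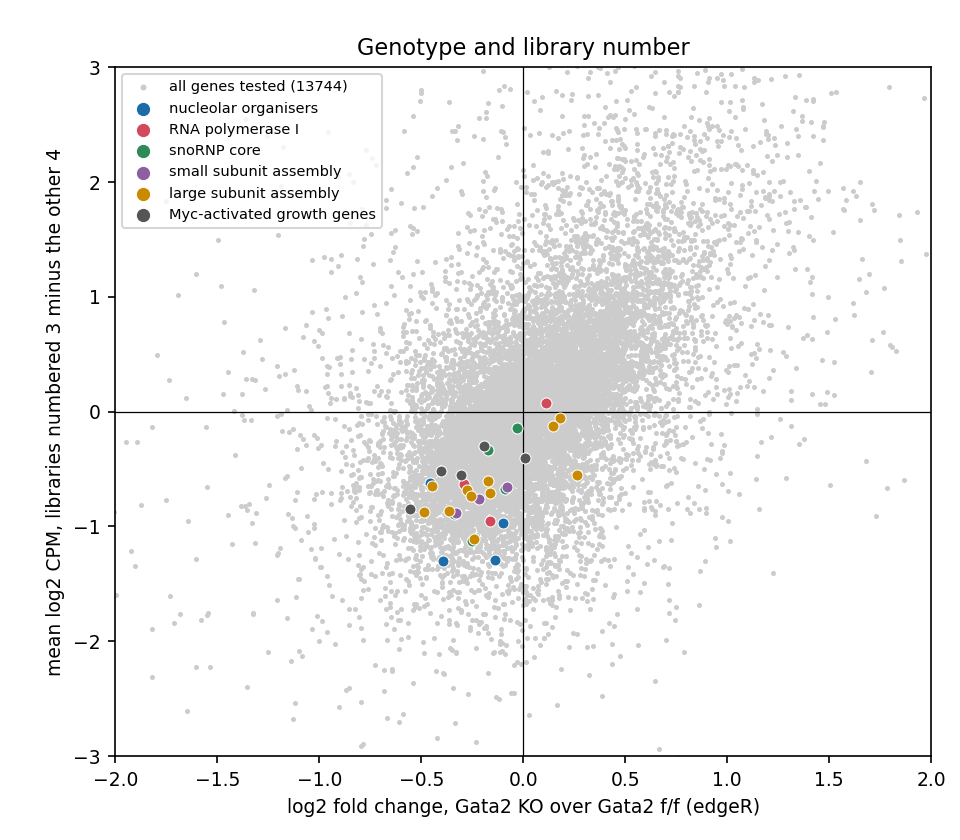
Log2 fold change between genotypes (horizontal) against the log2 difference between libraries numbered 3 and the other 4 (vertical), with members coloured over all tested genes in grey. Members have a median of -0.22 on the horizontal axis and -0.68 on the vertical axis, and 216 genes lie outside the axes.

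Other genes moved with the libraries numbered 3. Proliferation markers summed to 3566, 3485 and 2469 CPM in f/f libraries 1 to 3. In the KO libraries they summed to 3723, 3506 and 1612 CPM. Of the 12 markers, 11 were lower in both libraries numbered 3 than in the other 4 (20.4% of all genes). Only 2 passed edgeR's test between numbers (9.09% of all genes). The cell-cycle marker Mki67 stood at 303, 111 and 40.4 CPM in f/f and 402, 158 and 54.3 CPM in KO. Its log2 fold change between genotypes was positive (0.44), unlike those of the other 11 markers, and none of the 12 passed that test. Its log2 difference in libraries numbered 3, -2.20, was larger than the list's median of -0.80. All 12 monocyte and macrophage markers were higher in both libraries numbered 3 than in the other 4 (21.1% of all genes). Of these, 9 passed edgeR's test between numbers, against 9.09% of all genes, or 6.37% counting only those with both libraries above. Late neutrophil markers were less uniform, with 4 of 11 tested higher in both libraries numbered 3 than in the other 4. The p53 target Cdkn1a, which encodes the cell-cycle inhibitor p21, stood at 233, 228 and 758 CPM in f/f and 404, 389 and 979 CPM in KO. Their part in the members' levels was not tested. Mki67 and Cdkn1a were chosen after their values were seen.

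Members also share a gene structure: 9 of the 31 tested (29%) hold snoRNA genes on their own strand, 25 in all, against 225 of 12058 tested protein-coding genes (1.87%) by GENCODE M21. Nop56 holds 5, Nop58 holds 4, and Ncl, Wdr43, Gnl3 and Eif4a1 hold 3 each, with 2 in Ppan and 1 each in Dkc1 and Odc1. Of these 9 hosts, 4 passed the test between numbers (Ncl, Nop58, Dkc1 and Wdr43), beside 25.8% of members and 9.09% of all genes, and whether hosts differ from other members was not tested. The snoRNAs themselves had 0 to 20 counts over all 6 libraries, in RNA selected for poly(A) tails.

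Counts of some members may include reads of near-identical copies. Runs of 90 bases, the read length, that also occur in another gene covered 43.2% of the longest transcript of Ddx18, 29.4% of Hspd1, 25.3% of Npm1, 24.4% of Eif4a1, 24.1% of Odc1 and 11.6% of Nop56, and 20 of 32 members had no such run. Values of these 6 genes are uncertain for that reason, but the shares do not measure by how much. Exon overlap is a separate limit: 12 members share 5 to 508 exon bases with a gene on the other strand, and whether counting used strand is not given in the sources used here. Hspe1, which starts beside Hspd1 on the other strand, shares 112 of its exon bases and was looked at for that position. It stood at 256, 300 and 182 CPM in f/f and 149, 304 and 240 CPM in KO, so unlike Hspd1 it was not lower in KO within numbers 2 and 3.

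The rest of the pathway was read from 5 lists of other genes, chosen with earlier results of these data known. Among 122 other biogenesis genes tested, 95 had a negative log2 fold change, the median was -0.16, and 0 passed the test. Of all genes tested, 47.5% were negative, which is also the background for each list's count below. Within all 3 numbers, 53 were lower in KO (17.7% of all genes) and 7 higher (20.7% of all genes). Other small subunit factors were negative in 44 of 51 tested (median -0.20), with the rRNA methyltransferase Dimt1 at -0.50 ± 0.29 SE, Utp15 at -0.45 ± 0.28 and Ddx49 at 0.24 ± 0.20. Riok2, also on the small subunit list, had no counts under its symbol in any library and was not tested. Other large subunit factors were negative in 38 of 50 (median -0.15), with the export adaptor Nmd3 at -0.42 ± 0.28, Nifk at -0.33 ± 0.24 and Nop53 at 0.31 ± 0.24.

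Other snoRNP proteins were negative in 6 of 8 tested (median -0.18), with the box C/D protein Snu13 at -0.21 ± 0.21 SE, Ruvbl1 at -0.29 ± 0.34 and the H/ACA protein Nop10 at 0.16 ± 0.31, which turned to -0.16 without the library labelled Gata2 KO 2. The RNA polymerase I machinery apart from the members was split, 7 negative and 6 positive (median -0.01), with the initiation factor Rrn3 at -0.22 ± 0.21, Twistnb at -0.25 ± 0.25 and Cd3eap at 0.36 ± 0.35. Other Myc-activated growth genes were negative in 21 of 24 (median -0.19). The cap-binding factor Eif4e stood at -0.36 ± 0.25, the purine synthesis enzyme Ppat at -0.50 ± 0.37 and the glycolytic enzyme Eno1 at 0.44 ± 0.37, which turned to -0.052 without Gata2 KO library 3. No gene of the 5 lists passed the genotype test in either fit.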

How the data were processed

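The authors deposited whole-number counts per gene (unit: counts, not normalised) for 6 libraries of poly(A) RNA, prepared with NEBNext Ultra II and read as 90 bp pairs, per the labels' protocols. Per the submitters' processing notes, mm10, HTSeq, kallisto and DESeq2 were used, with no role stated. How counts were made (settings, annotation, strand) is not stated there. Of 49585 rows, 49326 were matched to GENCODE M21 symbols by Ensembl ID without version; unmatched rows held 0.00962% of counts. The 32 members were found by symbol.

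Counts were fitted over 13744 genes (edgeR filterByExpr, minimum count 10) with TMM scaling and edgeR 4.0.16's quasi-likelihood test in R 4.3.3, by genotype, at an adjusted p under 0.05 over all genes. Alternatives used limma 3.58.1, DESeq2 1.42.0, other scalings, no filter, and each library left out. Log2 CPM used a prior count of 2. The same fit was run on simulated data whose changes were larger than any member's log2 fold change between genotypes. That run does not show whether changes as small as the members' would pass. Titles number libraries 1 to 3 in both groups; deviations of equal-numbered libraries correlated at 0.294, 0.555 and 0.653, each over 0.1, so numbers were taken to pair libraries from these data, not from a stated design. Unlike numbers also correlated for f/f 1 with KO 2 (0.455) and f/f 2 with KO 1 (0.104), so the values set number 3 apart but do not show that 1 and 2 pair as numbered. The members and lists were chosen with earlier results of these data known. All members, Gata2 and Myc were named, and in each list the 2 genes of lowest p below 0 and the 1 above; within a role, every library's value is given for the 2 of lowest p, for groups that do not overlap, and for members that passed between numbers.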

Additional observations from a re-analysis of the deposited data

How the results depend on the processing

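Limits: 3 libraries per genotype, 1 of which goes against its label, left a biological coefficient of variation of 0.426, and 0.256 with the replicate block, on 4 and 2 residual degrees of freedom. With the block the median member log2 fold change was -0.30 and 26 members were negative. The block changed no member's call. Genes called lower and higher over the whole table, 0 and 0 by edgeR, came to 5 and 2 with the DESeq2 Wald test (0.0364% and 0.0146%) and to 42 and 180 with DESeq2 and the replicate block (0.306% and 1.31%). With the block and no Gata2 KO library 2 edgeR called 21 and 33 (0.147% and 0.231%). No member passed in any of these fits.

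Members with every KO library below every f/f library numbered 0, and from 0 to 14 in fits of 5 libraries, with 14 lacking Gata2 f/f library 3 (15.1% of all genes) and 6 lacking Gata2 KO library 2 (9.2%). They numbered 6 with the block and no Gata2 KO library 2, and 15 with no libraries numbered 3 (19.8%). Leaving out 1 library gave 16 to 28 negative members and a median of -0.43 to -0.021. Within numbers 1 and 2, 0 members differed between numbers, in a fit with too few libraries to show that these numbers are alike. By longest transcript the Npm1 level was 1128 CPM per kb. The alternatives with 2 choices, and those without libraries numbered 3, were chosen after seeing the data.

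Srm turned to -0.0091 with DESeq2 size factors and with the DESeq2 Wald test, -0.020 with upper-quartile scaling, -0.046 with no filter, -0.015 with DESeq2 and the block, and -0.059 with the block and no Gata2 KO library 2. That last fit also turned Polr1c to -0.028, and Noc4l was 0.15 with no libraries numbered 3. With 1 library left out, signs changed within these ranges of log2 fold change: Nolc1 -0.49 to 0.19, Mybbp1a -0.40 to 0.17, Polr1a -0.53 to 0.15, Polr1c -0.088 to 0.31, Nop56 -0.36 to 0.058, Rrp9 -0.15 to 0.033, Dkc1 -0.55 to 0.043, Rrp12 -0.58 to 0.066, Noc4l -0.36 to 0.20, Nop2 -0.40 to 0.025, Rrs1 -0.58 to 0.034, Ddx21 -0.53 to 0.056, Srm -0.13 to 0.13, Myc -0.38 to 0.13, Nop10 -0.16 to 0.36 and Eno1 -0.052 to 0.61. The cause of these changes was not tested.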

Other observations

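Levels in libraries numbered 3 were also compared for the rest of the biogenesis pathway. Among the 122 other biogenesis genes tested, 74 had both of these libraries below the other 4, against 20.4% of all genes, and 1 had both above. By list, this held for 31 of 51 small subunit factors, 33 of 50 large subunit factors, 5 of 8 snoRNP proteins and 5 of 13 genes of the RNA polymerase I machinery. Of the 122, 9 passed edgeR's test between numbers, a share below the 9.09% of all genes. All 9 had both libraries numbered 3 below the others, and 2.31% of all genes passed in that way. Other Myc-activated growth genes showed it in 12 of 24, with 2 above.

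The E-box CACGTG was also searched in the promoter windows of these lists, with 11.8% of tested genes as the background. It was present in 12 of 45 small subunit factors (26.7%), 7 of 41 large subunit factors (17.1%), 8 of 23 other Myc-activated growth genes (34.8%), 2 of 12 genes of the RNA polymerase I machinery and 0 of 7 snoRNP proteins.

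Genes known to take up ribosomal RNA reads held an uneven share of counts: 1.41% in Gata2 f/f library 1 and 1.02% in the library labelled Gata2 KO 2, and 0.158% to 0.250% in the other 4. Lars2 and Gm26917 carried these counts, and Gm42418 and AY036118 were listed at 0. Without these genes the members' median log2 fold change was -0.22.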
